A study of Penicillium oxalicum with 72 samples.

Results

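*POX06534/BrlA* of the filamentous fungus *Penicillium oxalicum* was followed across 24 culture conditions. It is 1 of the 9821 genes listed in the deposited expression files, was picked by its gene ID, and is listed in all 72 libraries. RNA was sequenced from hyphae of strain Δ*PoxKu70* (MuKu70 in the labels), a derivative of the wild-type strain HP7-1 that lacks *PoxKu70*, a gene of DNA end joining. Every library, controls included, carries this deletion, and no other strain was sequenced. Hyphae grown on glucose were moved to basic medium with 1% (w/v) of Avicel (AV, a microcrystalline cellulose), wheat bran (WB), methylcellulose (MC), 2-hydroxyethyl cellulose (HEC) or glucose (GLU), or with no carbon source (NC), and were collected 4, 12, 24 and 48 h later, with 3 libraries for each condition.

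BrlA is a C2H2 zinc finger transcription factor, known from *Aspergillus nidulans* as the switch that starts conidiation, the making of asexual spores on aerial stalks called conidiophores. There the Flb proteins act upstream of *brlA*, BrlA turns on *abaA*, and AbaA in turn acts on *wetA* and genes of the maturing spore, including those for its wall pigment. Conidiation is known to be favoured by starvation and held back in nutrient-rich liquid culture.

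Values are FPKM, fragments scaled to transcript length and to the mapped fragments of the library, so levels of different genes can be compared per length. Per library, FPKM added up to 924393 at the least and 1255914 at the most, and 9243 to 9568 genes were listed in each. In 71 of 72 libraries the most similar other library came from the same condition, the exception being replicate 1 of AV at 12 h. The wording of the 12 HEC libraries names methyl cellulose, and that of replicate 3 of NC at 24 h gives 4 h. The short names in their titles were followed, and the results of BrlA that rest on the NC library are also given without it. The study's methods call the replicates biological, but the labels do not say which cultures they came from, so *p*-values measure the spread between these libraries.

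BrlA was low early and rose late, and how far it rose depended on the medium. It reached 74.49 to 177.47 FPKM in the 12 libraries of HEC, NC, AV and MC at 48 h, while none of the other 60 libraries exceeded 33.45 FPKM. These 4 conditions held 83.6% of all BrlA signal summed over the 72 libraries.

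On NC, BrlA was 1.15, 1.09 and 0.99 FPKM at 4 h and 2.51, 1.14 and 0.93 FPKM at 12 h. It then reached 10.98, 8.9 and 8.47 FPKM at 24 h and 177.47, 120.54 and 117.68 FPKM at 48 h. The 4 h and 12 h libraries overlapped, whereas each later time lay above all earlier ones. Replicate 3 at 24 h, the library whose wording gives 4 h, had 8.47 FPKM, near its 24 h partners and above the 3 libraries of 4 h.

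On AV, BrlA followed a course much like that on NC. It was 1.39, 0.55 and 0.94 FPKM at 4 h, 2.21, 1.34 and 1.2 FPKM at 12 h, 7.89, 7.74 and 5.73 FPKM at 24 h, and 146.32, 125.22 and 125.68 FPKM at 48 h. Replicate 1 at 12 h, the library that lies nearest to another condition, had the highest BrlA of its group.

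On HEC, the rise was visible by 12 h. BrlA was 0.44, 0.78 and 0.92 FPKM at 4 h, 4.4, 4.03 and 2.66 FPKM at 12 h, 10.56, 18.26 and 17.55 FPKM at 24 h, and 155.02, 121.75 and 147.36 FPKM at 48 h. No library of one time overlapped with those of another.

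On MC, BrlA was 1.29, 0.74 and 2.09 FPKM at 4 h and 3.59, 3.08 and 3.32 FPKM at 12 h. It was already at 33.45, 32.3 and 33.35 FPKM at 24 h, above every library of the 19 conditions ranked below it, whose highest value was 18.26 FPKM. At 48 h it was 74.49, 94.44 and 78.91 FPKM. In FPKM as deposited these lay below all libraries of HEC, NC and AV at that time, but they overlapped with NC after rescaling of the libraries.

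On WB and GLU, BrlA stayed low to the end. On WB it was 0.1, 0.26 and 0.41 FPKM at 4 h, 0.82, 0.82 and 0.88 FPKM at 12 h, 4.26, 4.13 and 4.2 FPKM at 24 h, and 4.92, 4.12 and 4.21 FPKM at 48 h. On GLU it was 2.26, 1.76 and 2.34 FPKM at 4 h, 0.83, 1.72 and 1.03 FPKM at 12 h, 1.09, 0.77 and 2.06 FPKM at 24 h, and 3.2, 4.32 and 3.86 FPKM at 48 h. WB at 24 h and 48 h overlapped, as did GLU at 12 h and 24 h.

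**Figure D1:**
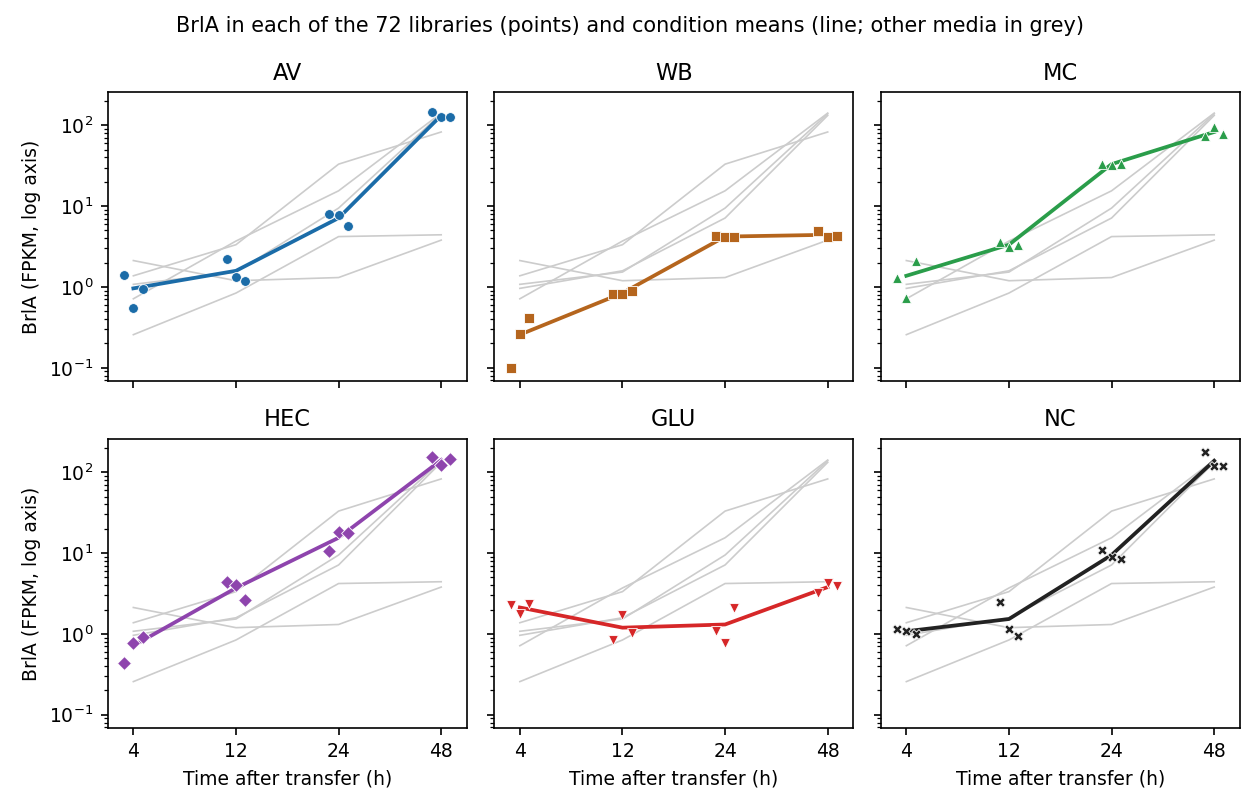
BrlA in FPKM (log axis) against the time after transfer, with 1 panel for each medium. Points are single libraries (3 for each time), the coloured line joins the condition means and grey lines show the other media. On AV, HEC, NC and MC the 48 h libraries lie between 74.49 and 177.47 FPKM, and on WB and GLU none exceeds 4.92 FPKM.

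Ordered by mean, HEC (141 ± 17.4 FPKM, SD, n = 3), NC (139 ± 33.7) and AV (132 ± 12.1) at 48 h came first, and their libraries overlapped. MC at 48 h (82.6 ± 10.5) and MC at 24 h (33.0 ± 0.637) followed, each apart from its neighbours. HEC (15.5 ± 4.26) and NC (9.45 ± 1.34) at 24 h overlapped, and AV at 24 h (7.12 ± 1.21) stood alone. WB at 48 h and 24 h, GLU at 48 h, and HEC and MC at 12 h formed a run of overlapping neighbours from 4.42 to 3.33 FPKM. A further run reached from GLU at 4 h (2.12 FPKM) to HEC at 4 h (0.713 FPKM), and WB at 4 h (0.257 FPKM) lay below it. In all, neighbours were apart in 7 of the 23 steps of this order.

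Among the 8898 genes tested, those whose 72-library mean was 1 FPKM or more, the mean level of BrlA stood at percentile 86.8 on NC at 48 h, 87.1 on HEC, 86.1 on AV and 81.3 on MC. It stood at percentile 10.5 on WB and 8.33 on GLU at the same time. A bulk library cannot tell whether fewer hyphae express a gene or each holds less of its RNA. BrlA was below 1 FPKM in 16 libraries, and such values rest on few reads.

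The comparison of later with earlier times in each medium asks when BrlA changed after the transfer. Log2 fold changes are differences of mean log2(FPKM + 1), which understate changes of genes near 0, and n-fold values are ratios of mean FPKM. Errors of log2 fold changes are SE from limma with 3 against 3 libraries. A gene was called up- or down-regulated where the unadjusted *p* did not exceed 0.05 and the |log2 fold change| reached 1, and limma's *p* adjusted by the Benjamini-Hochberg method over the 8898 genes is given beside it. BrlA was called as up-regulated in 16 of 24 such comparisons and as down-regulated in 0 by limma, with a lower level at an unadjusted *p* of at most 0.05 in 1, on GLU at 12 h against 4 h. Over the same 24 comparisons 12.9% of gene tests were called as up-regulated. Its libraries did not overlap in 20 of the 24, beside 63.6% of gene tests. All 16 calls also had an adjusted *p* of at most 0.05.

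From 4 to 12 h, BrlA was called only on HEC, where it rose 5.18-fold in mean FPKM (log2 fold change 1.45 ± 0.20, SE, limma adjusted *p* = 0.000724, 20% of genes called in either direction). On MC, all 3 libraries of 12 h lay above those of 4 h, but the log2 fold change of 0.91 ± 0.21 missed the threshold of 1 (1.12 and called without replicate 3 of MC at 4 h). On WB it was 0.56 ± 0.14, also without overlap. On AV and NC the groups overlapped, with 0.40 ± 0.23 and 0.23 ± 0.23, and on GLU the value was −0.52 ± 0.17 (limma adjusted *p* = 0.0316). Whether these steps differ between media was not tested.

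From 12 to 24 h, BrlA rose in 5 of the 6 media. The step was largest on MC (9.92-fold, log2 fold change 2.98 ± 0.09, limma adjusted *p* = 1.92e-07, 10.3% of genes called) and was 2.09 ± 0.24 on NC, 1.79 ± 0.24 on HEC, 1.66 ± 0.21 on AV and 1.5 ± 0.12 on WB, where 11.1%, 8.84%, 30.7% and 14.9% of genes were called. On GLU it was 0.05 ± 0.26, with overlapping libraries. Without replicate 3 of NC at 24 h the step on NC was 2.16 ± 0.28, and without replicate 1 of AV at 12 h the step on AV was 1.83 ± 0.19, both still called.

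From 24 to 48 h, the size of the step varied by medium, and whether the steps differ between media was not tested. BrlA rose 18.6-fold on AV (log2 fold change 4.05 ± 0.13, limma adjusted *p* = 5.87e-07), 14.7-fold on NC (3.72 ± 0.17, adjusted *p* = 1.18e-05) and 9.15-fold on HEC (3.14 ± 0.20, adjusted *p* = 2.25e-05). Among the 8898 genes ordered by this step, BrlA stood at place 53 from the top on AV, 37 on NC and 45 on HEC, where 15.8%, 10% and 8.1% of genes were called in either direction. On MC the step was 2.50-fold (1.29 ± 0.10, place 182, 7.53% of genes called). On WB the step was 0.06 ± 0.10, with overlapping libraries. On GLU it was 1.09 ± 0.23, from a mean of 1.31 to 3.79 FPKM (8.18% of genes called), and this call was lost after rescaling of the libraries, at 0.88, and without replicate 2 of GLU at 24 h, at 0.92. Without replicate 3 of NC at 24 h the NC step was 3.65 ± 0.20.

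Over the whole course from 4 to 48 h, BrlA rose 198-fold on HEC (log2 fold change 6.38 ± 0.15), 138-fold on AV (6.11 ± 0.16), 129-fold on NC (6.05 ± 0.17), 60.2-fold on MC (5.17 ± 0.20) and 17.2-fold on WB (2.11 ± 0.15). In these comparisons 32.6%, 24.7%, 30.5%, 29.2% and 49.0% of genes were called. On WB the rise was complete by 24 h within the spread, and it started from 0.257 FPKM. The 4 h means on HEC, AV and WB were below 1 FPKM and rest on few reads, and so do the n-fold values against them. On GLU the 48 h libraries lay above those of 4 h, at 1.79-fold (0.62 ± 0.13), under the threshold of 1.

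Setting each carbon source against NC of the same hour asks what the carbon source adds to starvation alone. BrlA was called as up-regulated in 1 of 20 comparisons, on MC at 24 h, and as down-regulated in 4, on WB and GLU at 24 h and 48 h. The 5 carbon sources share the NC libraries of each time, so these values are not independent of each other. Over the same comparisons 15.5% of gene tests were called, 5.28% as up-regulated and 10.2% as down-regulated. Its libraries did not overlap with those of NC in 13 of the 20, beside 63.4% of gene tests. All 5 calls had a limma adjusted *p* of at most 0.05.

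At 4 h and 12 h, BrlA was called in none of the 10 comparisons with NC, although 4 of them had both an unadjusted and an adjusted limma *p* of at most 0.05. At 4 h its mean was 0.257 FPKM on WB against 1.08 FPKM on NC (log2 fold change −0.73 ± 0.15, limma adjusted *p* = 0.00296), and 2.12 FPKM on GLU (0.58 ± 0.13, adjusted *p* = 0.00659). On AV, MC and HEC the differences of −0.11 ± 0.18, 0.15 ± 0.21 and −0.29 ± 0.15 did not pass the test. At 12 h, all 3 libraries of MC (0.83 ± 0.23, adjusted *p* = 0.0139) and of HEC (0.93 ± 0.26, adjusted *p* = 0.031) lay above those of NC. Both of these values crossed the threshold of 1 with a pseudocount of 0.1 (1.2 and 1.31), after rescaling (1.08 and 1.03), and without replicate 1 of NC at 12 h (1.09 and 1.19), and that of HEC also without its replicate 3 (1.10).

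At 24 h, BrlA was 3.50-fold higher on MC than on NC (33.0 against 9.45 FPKM, log2 fold change 1.71 ± 0.10, limma adjusted *p* = 5.36e-06, 24.1% of genes called in either direction). It was 7.23-fold lower on GLU (−2.21 ± 0.24, adjusted *p* = 0.00046, 19.9% of genes called). It was 2.25-fold lower on WB (−1.0 ± 0.12, adjusted *p* = 0.00022, 16.9% of genes called), a value on the threshold that was no longer called after rescaling (−0.79), without replicate 1 of NC (−0.90) or without replicate 2 of WB (−0.99). In these 3 comparisons the libraries did not overlap. On HEC the difference of 0.63 ± 0.21 (adjusted *p* = 0.0369) came with overlapping libraries. On AV it was −0.37 ± 0.15 (adjusted *p* = 0.0785), with all libraries of AV below those of NC.

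Without replicate 3 of NC at 24 h, the differences were 1.64 on MC, −2.28 on GLU, −1.07 on WB, 0.56 on HEC and −0.43 on AV. The same 3 were called, while the limma adjusted *p* on HEC rose to 0.106.

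At 48 h, BrlA was 36.5-fold lower on GLU than on NC (3.79 against 139 FPKM, log2 fold change −4.84 ± 0.17, limma adjusted *p* = 9.33e-07, 14.4% of genes called in either direction) and 31.4-fold lower on WB (4.42 FPKM, −4.66 ± 0.16, adjusted *p* = 1.69e-06, 10.9% of genes called). Ordered by this change from the lowest up, BrlA stood at place 36 of 8898 genes on WB and 56 on GLU. On MC it was 1.68-fold lower without overlap, at −0.72 ± 0.17 (adjusted *p* = 0.0077), short of the threshold. After rescaling by the median of ratios, BrlA on MC reached 99.764 FPKM, above replicates 2 and 3 of NC (97.056 and 97.494 FPKM). On AV and HEC it differed from NC by −0.04 ± 0.17 and 0.05 ± 0.17, less than the spread between libraries.

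**Figure D2:**
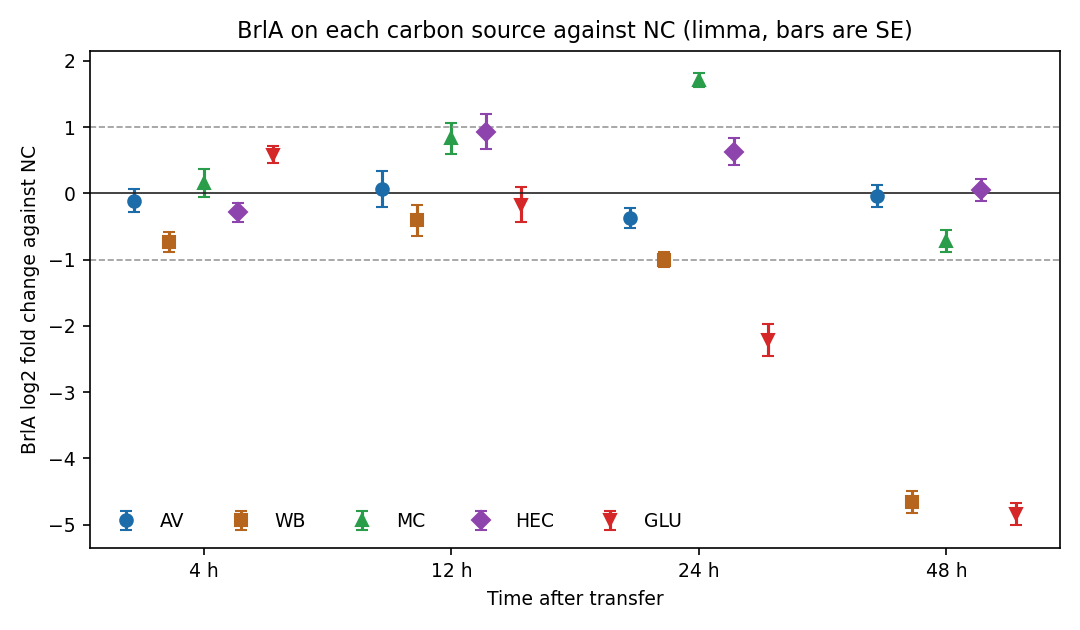
BrlA log2 fold change of each carbon source against NC at 4, 12, 24 and 48 h, with the SE from limma as bars (3 against 3 libraries) and dashed lines at the thresholds of −1 and 1. MC stands at 1.71 at 24 h, and WB and GLU stand at −4.66 and −4.84 at 48 h.

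In FPKM the genes tested had a median log2 fold change off 0 in these comparisons, which stood at −0.42 on MC at 24 h and −0.41 at 48 h. Rescaling by the median of ratios shifted it by −0.09 to 0.39 over the 20 comparisons with NC, by over 0.1 in 15 of them, and moved BrlA to 2.09 on MC at 24 h, −0.32 on MC at 48 h, −4.54 on WB and −4.86 on GLU at 48 h. On AV at 48 h the sign turned, to 0.15.

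Whether the difference from NC changed with time was tested in 1 fit of all 72 libraries, 24 h and 48 h against 4 h, for the 5 carbon sources. It changed at a limma adjusted *p* of at most 0.05 in 6 of 10 cases. The difference of GLU from NC went from 0.58 at 4 h to −2.21 at 24 h and −4.84 at 48 h, changes of −2.79 ± 0.29 (adjusted *p* = 3.95e-12, 56.4% of genes passing) and −5.43 ± 0.29 (adjusted *p* = 4.14e-23, 56.3%). That of WB went from −0.73 to −4.66 at 48 h, a change of −3.93 ± 0.29 (adjusted *p* = 1.39e-17, 68.8% of genes passing), while its change by 24 h was −0.27 ± 0.29. With a pseudocount of 0.1 the 4 h difference of WB was −1.82, and its change by 24 h turned to 0.68. MC moved up by 1.56 ± 0.29 at 24 h (adjusted *p* = 2.03e-05, 33.9% of genes passing) and then down by 0.87 on the log2 scale at 48 h relative to 4 h (adjusted *p* = 0.0113, 42.2%). HEC moved up by 0.91 ± 0.29 at 24 h (adjusted *p* = 0.0157, 22.1%) and by 0.33 ± 0.29 at 48 h, and AV by −0.26 ± 0.29 and 0.06 ± 0.29. The change on MC at 48 h lost its call without replicate 3 of MC at 4 h (−0.66) or replicate 1 of NC at 48 h (−0.68), and that on HEC at 24 h without replicate 1 of HEC at 4 h (0.79) or replicate 2 at 24 h (0.78). Without replicate 3 of NC at 24 h the 24 h changes were 1.49 on MC, 0.85 on HEC and −2.86 on GLU, all still past the threshold.

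Compared with GLU, the medium of the pre-culture, BrlA was called as up-regulated in 9 of 16 comparisons and as down-regulated in 1, beside 20.7% of gene tests called over the same comparisons. The single lower value was on WB at 4 h (−1.31 ± 0.14, limma adjusted *p* = 0.000228, 19.2% of genes called). At 24 h it was higher on all 4 of the other carbon sources, by 3.92 ± 0.21 on MC, 2.84 ± 0.28 on HEC, 1.84 ± 0.24 on AV and 1.21 ± 0.22 on WB, where 23.5%, 18.6%, 16.6% and 16.8% of genes were called. At 48 h it was 34.9-fold higher on AV, 37.3-fold on HEC and 21.8-fold on MC (19.1%, 21.9% and 27.6% of genes called), and on WB the log2 fold change was 0.18 ± 0.13, with overlapping libraries. The calls of MC (1.00 ± 0.18) and HEC (1.10 ± 0.21) at 12 h lay at the threshold, beside 22.9% and 23.8% of genes called. Both calls were lost without replicate 1 of GLU at 12 h (0.88 and 0.98), that of MC also without its replicate 1 (0.96) or replicate 3 of GLU (0.95), and that of HEC without its replicate 1 (0.99).

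MC and HEC are cellulose ethers, one carrying methyl and the other hydroxyethyl groups, and were given at the same concentration and sampled at the same times. The 4 comparisons were adjusted over all genes within each fit. At 4 h the log2 difference of MC minus HEC was 0.44 (95% interval −0.08 to 0.97) and at 12 h −0.10 (−0.50 to 0.30), with overlapping libraries at both times. At 24 h it was 2.14-fold higher on MC (1.08 ± 0.19, limma adjusted *p* = 0.00366, 7.77% of genes called in either direction). At 48 h it was 1.71-fold higher on HEC (−0.77 ± 0.13 for MC minus HEC, adjusted *p* = 0.00189), short of the threshold. The libraries were apart at both of these times, in opposite order, as were those of 50.3% and 52.3% of all genes tested, in either direction. Without replicate 1 of HEC at 24 h, the lowest of its group, the 24 h value was 0.85, under the threshold.

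The other conidiation genes described here came from a co-expression module found by the study in these same samples, BrlA included, so their sharing of its course is not independent evidence. Over the comparisons between times these 11 genes were called as up-regulated in 134 of 264 gene tests (50.8%) and as down-regulated in 4 (1.52%), against 12.9% and 6.31% of all gene tests. Over the comparisons with NC they were called as up-regulated in 10 of 220 (4.55%) and as down-regulated in 54 (24.5%), against 5.28% and 10.2%. Without replicate 3 of NC at 24 h these counts were 134 and 4 between times, and 9 and 55 against NC. With all libraries, ArpA-like and ArpB-like gave 11 and 12 of the 54 calls down against NC, and 18 and 18 of the 134 calls up between times. NimX, a cyclin-dependent kinase of the cell cycle, was called in 0 of the 44 comparisons by limma, with an unadjusted *p* under 0.05 in 13 with NC and 14 between times. FlbB was called in 0 of those with NC, with an unadjusted *p* under 0.05 in 9.

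FlbB, in *A. nidulans* a bZIP activator upstream of *brlA*, had means of 37.5 to 64.8 FPKM at 4 h, when BrlA was at most 2.12 FPKM. It reached 138 FPKM on NC at 48 h (150.88, 133.7 and 129.54 FPKM) and 77.7 FPKM on GLU (76.78, 72.74 and 83.45 FPKM). FlbD, a Myb-like partner of FlbB, had 4.84, 4.34 and 12.77 FPKM on WB at 4 h and means of 28.1 to 76.6 FPKM on the other media. It had 339.13, 419.58 and 364.4 FPKM on NC at 48 h. On GLU at 48 h it had 19.72, 18.1 and 15.61 FPKM, a log2 fold change of −4.32 ± 0.11 (limma adjusted *p* = 1.88e-07). FlbD on WB stood at 110.24, 128.91 and 148.1 FPKM. Thus WB and GLU at 48 h, which overlapped in BrlA, did not overlap in either FlbB or FlbD.

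AbaA, a TEA/ATTS factor downstream of BrlA in *A. nidulans*, was called as up-regulated only in comparisons of 48 h with an earlier time. Its means lay between 1.08 and 3.94 FPKM in all 18 conditions up to 24 h, including MC at 24 h (3.19, 3.17 and 2.6 FPKM), where BrlA was already at 33.0 FPKM. At 48 h AbaA had 30.3, 26.06 and 21.43 FPKM on NC, 23.63, 20.41 and 22.65 FPKM on HEC, 16.61, 18.85 and 15.47 FPKM on MC, and 18.12, 15.86 and 13.94 FPKM on AV. These are the same 4 conditions in which BrlA was highest. On WB it had 5.13, 3.72 and 4.34 FPKM (log2 fold change against NC −2.31 ± 0.15, limma adjusted *p* = 3.81e-05), and on GLU it had 4.75, 4.62 and 5.33 FPKM.

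Of the pigment genes, Alb1/wA, the polyketide synthase that starts the conidial pigment in *Aspergillus*, tracked the late rise. It had at most 1.91 FPKM on average up to 24 h, except on MC at 24 h (9.71, 10.14 and 9.47 FPKM), the condition of highest BrlA at that time. At 48 h its mean was 51.7 FPKM on AV, 46.0 on HEC, 40.6 on NC and 25.4 on MC, but 2.59 on WB and 1.93 on GLU (log2 fold change against NC on GLU −3.83 ± 0.09, limma adjusted *p* = 1.5e-07).

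AygA, a hydrolase that trims the polyketide in *Aspergillus fumigatus*, moved earlier. On MC it went from 42.13, 28.4 and 29.38 FPKM at 12 h to 355.44, 363.19 and 337.79 FPKM at 24 h, close to its 379 FPKM at 48 h, while BrlA still rose 2.50-fold. On NC it had 394.06, 476.48 and 375.44 FPKM at 48 h and on GLU 6.36, 5.44 and 4.62 FPKM, a log2 fold change of −6.01 ± 0.13 (limma adjusted *p* = 9.29e-08). ArpA, the scytalone dehydratase of pigment synthesis in *A. fumigatus*, behaved alike, with 138.82, 145.12 and 120.87 FPKM on MC at 24 h and 218.02, 246.47 and 191.47 FPKM on NC at 48 h. On GLU at 48 h it had 2.23, 3.26 and 2.62 FPKM (−5.89 ± 0.13, adjusted *p* = 1.08e-07). AbrA, a multicopper oxidase, ran over a smaller range, from a mean of 3.16 FPKM on WB at 4 h to 123 FPKM on AV at 48 h, and was 1.82 lower on the log2 scale on GLU than on NC at 48 h (−1.82 ± 0.07, adjusted *p* = 1.39e-06).

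ArpA-like and ArpB-like were high before BrlA. On NC at 12 h, with BrlA at 0.93 to 2.51 FPKM, ArpA-like had 12174, 7672.86 and 7690.77 FPKM and ArpB-like 8265.59, 5282.95 and 5397.01 FPKM. On WB at 12 h they had 3.36, 3.7 and 4.39 FPKM and 1.71, 2.2 and 1.54 FPKM, log2 fold changes of −10.87 ± 0.19 (limma adjusted *p* = 1.41e-08) and −11.11 ± 0.18 (adjusted *p* = 1.26e-08). On GLU at 48 h, where BrlA was 3.79 FPKM, ArpA-like had 5118.04, 5000.98 and 4827.67 FPKM.

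TmpA, a membrane flavoprotein tied to conidiation in *A. nidulans*, ranged in mean from 6.18 FPKM on WB at 4 h to 73.8 FPKM on AV at 48 h. On WB at 48 h it was 24.47, 20.71 and 17.76 FPKM against 70.89, 67.41 and 56.12 FPKM on NC (log2 fold change −1.59 ± 0.14, limma adjusted *p* = 0.000141). NimX stayed between 73.0 and 152 FPKM in mean.

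**Figure D3:**
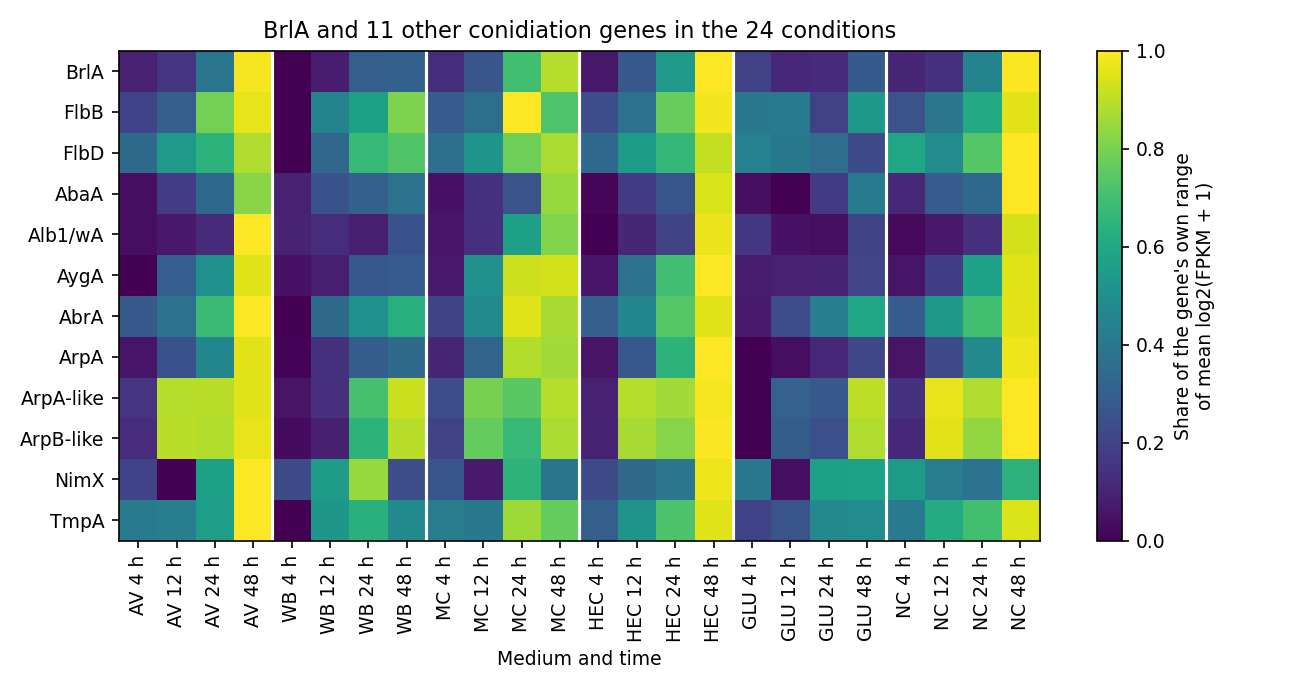
Mean log2(FPKM + 1) of BrlA and 11 other conidiation genes (rows) in the 24 conditions (columns, by medium and time), coloured as the share of each gene's own range from its lowest condition (0) to its highest (1). The 48 h columns of AV, MC, HEC and NC are bright in BrlA, AbaA and Alb1/wA. ArpA-like and ArpB-like are bright on AV, MC, HEC and NC from 12 h, and on WB and GLU by 48 h.

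Counted by comparison, 9 of the 11 genes were called as down-regulated on WB and 9 on GLU against NC at 48 h, the 2 comparisons in which BrlA was lowest, beside 6.36% and 9.1% of all genes tested. The median log2 fold change of the 11 was −1.59 on WB and −1.82 on GLU, beside −0.11 and 0.10 over all genes tested. At 24 h on MC, 4 genes were up-regulated (Alb1/wA, AygA, AbrA and ArpA) and 2 down-regulated (ArpA-like and ArpB-like), with a median of 0.55 beside −0.42 over all genes, of which 5.95% and 18.2% were called in these directions. On AV, 0 of the 11 were called against NC at 12, 24 and 48 h by limma, with an unadjusted *p* under 0.05 in 4, 6 and 6 of them, and on HEC 0 at 48 h, with 3. Of all genes, 10.4%, 10.4% and 14.9% were called in these comparisons on AV and 8.44% on HEC.

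From 24 to 48 h, 8 of the 11 were called as up-regulated on AV, 8 on HEC and 8 on NC, the media with the largest steps of BrlA, beside 8.04%, 5.27% and 5.86% of all genes tested. On MC 4 were called (3.75% of all genes). On WB and GLU only ArpA-like and ArpB-like were called (6.59% and 5.86%), with an unadjusted *p* under 0.05 in 9 and 8 of the 11. From 4 to 48 h on GLU, 6 were called as up-regulated and FlbD as down-regulated, beside 30.2% and 7.55% of all genes.

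The labelled tissue is mycelium. The 7 genes held as marks of conidiophores and conidia (AbaA, Alb1/wA, AygA, AbrA, ArpA, ArpA-like and ArpB-like) had a mean above 0 in every condition. The 7 summed to 7003 to 26904 FPKM in the 12 libraries of highest BrlA, and WB (9486 to 9890 FPKM) and GLU (7949 to 8442 FPKM) at 48 h lay within that range. Most of these sums is ArpA-like and ArpB-like. The other 5 summed to 601.6 to 1052 FPKM in the same 12 libraries and to 572.3 to 625.9 FPKM on MC at 24 h, which overlapped with MC at 48 h. They summed to 55.4 to 57 FPKM on WB and 43.1 to 46.5 FPKM on GLU at 48 h, and to 6.62 to 19.3 FPKM over all libraries of 4 h. Whether the rise of BrlA reflects a growing share of conidiating hyphae was not tested.

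Likeness to BrlA was measured as Pearson's r of mean log2(FPKM + 1) over the 24 conditions, for 8897 other genes. It is a description, since conditions share the time course and the glucose-grown starting culture, and the 4 conditions of highest BrlA weigh heavily. The 10 genes of highest r were *POX08386* (0.989), *POX08828* (0.985), *POX09468* (0.984), *POX07238* (0.984), *POX03250* (0.982), *POX01431* (0.981), *POX03776* (0.980), *POX07232* (0.977), *POX08109* (0.977) and *POX03496* (0.977). Of these 10, 1 was shared with the 10 of highest Spearman's rho, and 1 with the 10 of highest r without the 4 conditions of highest BrlA. Only *POX01431* has an annotation in the sources used here, that of a multicopper oxidase. In all, 152 genes (1.71%) had an r of at least 0.9, and the median over all genes was 0.155.

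The genes most like BrlA differed in level. *POX01431* (148.8 FPKM on AV and 116.1 FPKM on NC at 48 h) and *POX03496* (137.7 and 118.9 FPKM) came near the level of BrlA there. *POX03250* reached 3580 FPKM on NC and 3545 FPKM on HEC at 48 h, 14 FPKM on WB and 6.55 FPKM on GLU. *POX07238* reached 1144 FPKM on HEC at 48 h and 112.4 FPKM on MC at 24 h. *POX08386*, the gene of highest r, had condition means of at most 38.6 FPKM, with 3.64 FPKM on GLU and 4.41 FPKM on WB at 48 h. *POX09468* had 0.14 FPKM on GLU and 0.58 FPKM on WB at 48 h against 43.6 FPKM on HEC. At 24 h it had 13.1 FPKM on MC and 5.23 FPKM on HEC.

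At the other end, the 5 genes of lowest r were *POX07120* (−0.9), *POX03297* (−0.885), *POX09040* (−0.881), *POX04254* (−0.870) and *POX04565* (−0.866). *POX04565* had a mean of 225.4 FPKM on GLU and 86.8 FPKM on WB at 48 h, against 10.8 FPKM on MC and 16.3 FPKM on NC.

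**Figure D4:**
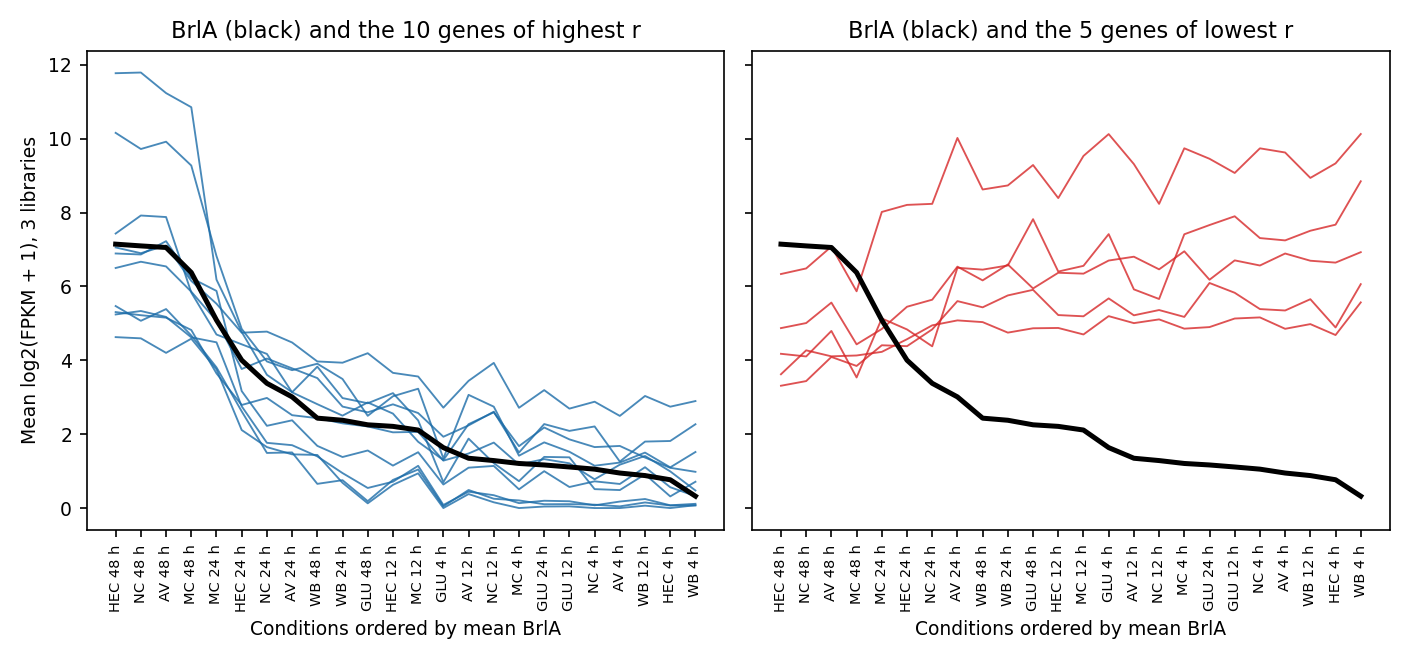
Mean log2(FPKM + 1) over 3 libraries in the 24 conditions, ordered from highest to lowest mean BrlA (black), with the 10 genes of highest r in the left panel (blue) and the 5 of lowest r in the right panel (red). The blue genes are high in the 4 conditions of HEC, NC, AV and MC at 48 h at the left, and the red genes tend to run higher towards the right.

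Among the 11 conidiation genes, ArpA was most like BrlA (r = 0.975, rank 15 of 8897), followed by AygA (0.960, rank 36), Alb1/wA (0.949, rank 53), AbaA (0.907, rank 143) and AbrA (0.905, rank 147). TmpA (0.881), FlbB (0.880) and FlbD (0.865) came next. ArpB-like (0.663), ArpA-like (0.657) and NimX (0.620) were least alike. Without the 4 conditions of highest BrlA, r fell to 0.578 for AbaA but was still 0.952 for ArpA and 0.942 for AygA. The conditions left still span BrlA means of 0.257 to 33.0 FPKM, and r over its low levels alone was not computed.

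**Figure D5:**
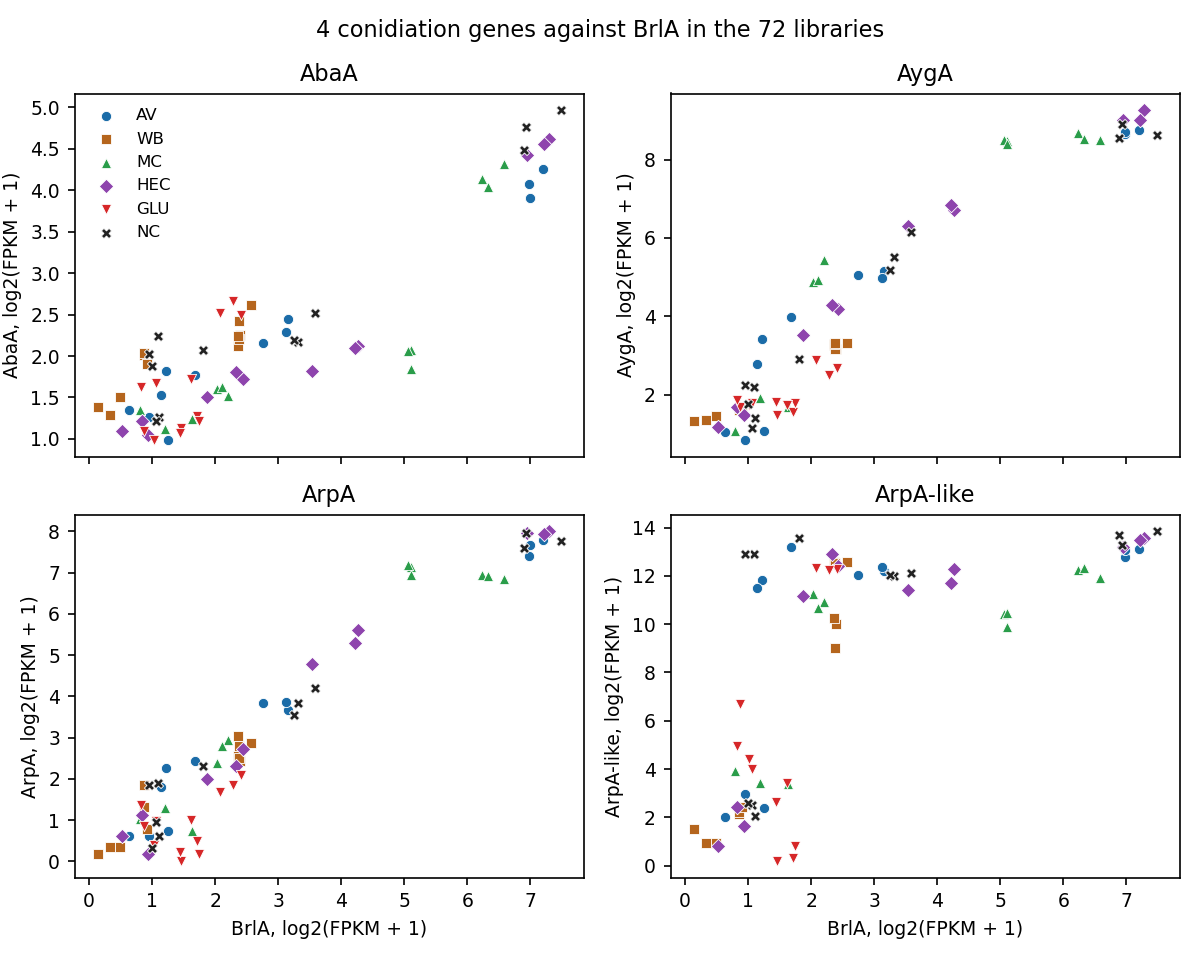
Levels of AbaA, AygA, ArpA and ArpA-like against BrlA, all as log2(FPKM + 1), in the 72 libraries, with 1 symbol and colour for each medium. AygA and ArpA tend to be higher where BrlA is higher. On MC they levelled off, at means of 352.1 and 134.9 FPKM at 24 h and 379.1 and 118.4 FPKM at 48 h. AbaA is high only in the 12 libraries in which BrlA is at least 74.49 FPKM. ArpA-like is already at 7672.86 FPKM or more on NC at 12 h, with BrlA at 0.93 to 2.51 FPKM.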

How the data were processed

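The authors deposited FPKM values, 1 file for each library. Per the methods, reads of strain Δ*PoxKu70* were filtered, aligned to the HP7-1 genome and genes, and quantified with RSEM (version 1.2.12, with Bowtie2 2.1.0, in the submitters' processing notes). The files used here give no reads per gene, so the reads behind a value are not known. Depth relative to the other libraries was estimated from the steps of low values at 0.7 to 1.082. Genes left out of a library were set to 0. FPKM was transformed to log2(FPKM + 1), the 8898 genes averaging 1 FPKM or more were kept, and limma 3.58.1 (R 4.3.3, variance trend) was run on the 6 libraries of each comparison. Changes of the difference from NC were fitted on all 72 libraries. Tables were made with Python 3.11.15. The procedure was tested on simulated data.

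Groups and replicate numbers came from titles. Same-numbered libraries deviated together (every pair's r over 0.1) in 2 of 64 comparisons, AV against NC at 12 h and AV against GLU at 4 h. Named were BrlA, the study's 11 other conidiation genes, 3 APSES genes, 8 cellulase and xylanase genes, and the 10 genes of highest and 5 of lowest r, with a test value for a conidiation gene in its NC comparison of largest change. Members and lists were chosen with earlier results of these data known. Alternatives were pseudocount, filter, all libraries in 1 fit, replicate block, rescaling, adjusted *p* and leaving out each library.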

Additional observations from a re-analysis of the deposited data

Results flagged for a closer look

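The difference of BrlA from NC changed between times on 4 carbon sources, in the limma fit of all 72 libraries (adjusted *p* of at most 0.05 in 6 of 10 cases). On the log2(FPKM + 1) scale and against 4 h, it changed by 1.56 on MC at 24 h and by −0.87 on MC at 48 h. The latter was no longer past the threshold after rescaling (−0.60), with a pseudocount of 0.1 (−0.95, limma adjusted *p* = 0.0833), without replicate 3 of MC at 4 h (−0.66) or without replicate 1 of NC at 48 h (−0.68). It changed by 0.91 on HEC at 24 h, no longer past the threshold without replicate 1 of HEC at 4 h (0.79) or replicate 2 at 24 h (0.78). It changed by −2.79 on GLU at 24 h, −5.43 on GLU at 48 h and −3.93 on WB at 48 h. All 5 carbon sources share the NC libraries, and the 48 h values of NC rest on libraries of 177.47, 120.54 and 117.68 FPKM.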

How the results depend on the processing

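Of the 64 comparisons of BrlA, none changed its call with no filter, a filter of 5 FPKM, all 72 libraries in 1 fit, the adjusted *p* or the replicate block. The replicate block also changed no call of the 10 changes over time and 0 of the 484 gene calls of the 11 other conidiation genes, where the adjusted *p* changed 1, no filter 1, a pseudocount of 0.1 changed 16 and rescaling 18. With the block BrlA was −4.84 on GLU and −4.66 on WB against NC at 48 h. A pseudocount of 0.1 raised 7 comparisons past the threshold: WB against NC at 4 h (−1.82), MC (1.2) and HEC (1.31) against NC at 12 h, WB (1.5) and MC (1.32) at 12 h against 4 h, and AV (−1.14) and HEC (−1.49) against GLU at 4 h. It turned the change of WB at 24 h to 0.68 and cost the call of MC at 48 h (−0.95, limma adjusted *p* = 0.0833).

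Rescaling shifted the median of all genes by over 0.1 in 43 of 64 comparisons (−0.55 to 0.47). It raised MC (1.08) and HEC (1.03) against NC at 12 h, and cost the calls of WB against NC at 24 h (−0.79), GLU at 48 h against 24 h (0.88) and the change of MC at 48 h (−0.60). It turned uncalled values of AV at 4 h (0.01) and 48 h (0.15) and GLU at 12 h (0.02) against NC, WB at 48 h against 24 h (−0.01), GLU at 24 h against 12 h (−0.15) and MC against HEC at 12 h (0.06). The cause was not tested beyond that shift.

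Leaving out each library in turn gave these ranges where a sign or a call moved. Against NC they were −0.26 to 0.05 on AV and −0.06 to 0.36 on MC at 4 h. At 12 h they were −0.11 to 0.33 on AV, 0.66 to 1.09 on MC, 0.76 to 1.19 on HEC and −0.34 to 0.09 on GLU. They were −1.07 to −0.90 on WB at 24 h, and −0.15 to 0.15 on AV and −0.06 to 0.24 on HEC at 48 h. Between times they were −0.01 to 0.10 on WB (48 h against 24 h), 0.70 to 1.12 on MC and −0.03 to 0.40 on NC (12 h against 4 h), −0.17 to 0.23 on GLU (24 h against 12 h) and 0.92 to 1.31 on GLU (48 h against 24 h). At 12 h against GLU they were 0.88 to 1.17 on MC and 0.98 to 1.27 on HEC, and for MC against HEC −0.27 to 0.01 at 12 h and 0.85 to 1.22 at 24 h. For changes over time they were 0.78 to 1.15 on HEC at 24 h, −0.10 to 0.25 on AV and −1.08 to −0.66 on MC at 48 h. With 1 group down to 2 libraries the spread is pooled over both groups.

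Of the 10 genes most like BrlA, 1 was shared under Spearman's rho, 5 with FPKM not on a log scale, and 1 without the 4 conditions of highest BrlA, an alternative chosen after seeing the data, as were those of the conidiation genes between times. The reads behind a value are not known, and levels below 1 FPKM rest on few reads.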

Other observations

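The cellulase and xylanase genes, also followed by the study, ran on another course than BrlA. Over the 24 conditions r was 0.467 for Cel6A, 0.422 for Cel7A-2, 0.382 for Cel5B, 0.341 for Cel5A, 0.337 for Cel45A and 0.307 for Cel7B. For Xyn11A and Xyn10A r was 0.093 and 0.032, beside a median of 0.155 over all genes. At 48 h Cel7A-2, a cellobiohydrolase, had a mean of 28069 FPKM on MC, 3032 on AV and 937 on HEC but 6.84 on NC, while BrlA was 82.6, 132, 141 and 139 FPKM there. On WB at 48 h Cel7A-2 had 645 FPKM with BrlA at 4.42 FPKM. Both genes were low together on GLU, at 3.81 and 3.79 FPKM.

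Of the 3 genes for APSES-domain factors, the family of the *Aspergillus* conidiation modifier StuA, *POX03789* had an r of 0.647 with BrlA, *POX00057* of −0.267 and *POX05211* of −0.374. At 48 h *POX03789* had a mean of 208.5 FPKM on NC and 139.8 FPKM on GLU, a far narrower span than that of BrlA. Which of them, if any, is StuA is not given in the sources used here.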
